A study of Macaca fascicularis with 4 samples.

Results

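Cells named gonadal cells with keratins were picked out by their transcripts in a monkey embryo library of embryonic day 37 (E37). A cell barcode was included when it held at least 1 unique molecular identifier (UMI, 1 captured transcript) of LHX9, at least 1 of GATA4 or WT1, and at least 3 of KRT8 and KRT18 together. Of the 5298 barcodes of the E37 library, 97 met this rule, or 1.83% (exact binomial 95% interval 1.49% to 2.23%), out of 27626 barcodes in the series. They are called keratin barcodes here.

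The study profiled cynomolgus monkey (Macaca fascicularis) embryos in single cells by droplet capture and 3′-end sequencing, with 1 library for each of E24, E28, E31 and E37 (Carnegie stages 11, 13, 14 and 18). At E37 most of the mesonephros and mesentery had been cut away, which left mainly the gonadal ridge, with remnants of both and presumed adrenal gland. At E28 and E31 the urogenital ridge was taken whole, with mesonephros, coelomic epithelium and nearby mesentery. The labels name no treatment, and give 2 animals for E24 and 1 for every later stage. The keratin barcodes were set against 3 groups: the 324 E37 barcodes with LHX9 and no KRT8 or KRT18 UMI (keratin-free LHX9 barcodes), the 5201 other E37 barcodes, and the 94 E28 barcodes that met the same rule. With 1 library per stage there is no replicate and no test. Every interval is 95% and covers counting error within a library only.

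The gonad arises as a thickening of the coelomic epithelium, the sheet that lines the body cavity, over the mesonephros. Cells of that sheet multiply, and some leave it and move inward, losing epithelial features as they become somatic cells of the gonad. KRT8 and KRT18 pair into the filaments typical of simple, single-layered epithelia. LHX9, GATA4 and WT1 are transcription factors, and in the mouse each is needed for the gonad to form.

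The values that chose the barcodes are given as a description. The keratin barcodes held 3 to 50 KRT8 and KRT18 UMIs, with a median of 5. KRT8 was found in all 97 and KRT18 in 72, so 25 qualified on KRT8 alone and 0 on KRT18 alone. WT1 was found in 87 and GATA4 in 50, with both in 40, WT1 alone in 47 and GATA4 alone in 10. LHX9 had a median of 2 UMIs and at most 9, and 35 barcodes qualified on a single LHX9 UMI. At the threshold itself, 24 barcodes held exactly 3 keratin UMIs, and 55 barcodes met the other conditions with 2 keratin UMIs and fell outside. A further 17 LHX9 barcodes had 3 or more keratin UMIs but neither GATA4 nor WT1.

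Depth differed between the groups. The keratin barcodes had a median of 9370 UMIs (3210 to 21091) and 3097 genes, the keratin-free LHX9 barcodes 6448 UMIs (2442 to 17470) and 2397.5 genes, and the other E37 barcodes 6630 UMIs. A rule that asks for 3 keratin UMIs is met more easily by a deeper barcode. When every barcode was thinned to 4000 UMIs before the rule was applied, 17 barcodes met it. For this reason levels were compared as UMIs summed over a group and scaled to the group's total (CPM, counts per 1000000 UMIs). The totals were 1001466 UMIs in keratin barcodes, 2255194 in keratin-free LHX9 barcodes and 39241820 in the other E37 barcodes.

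**Figure D1:**
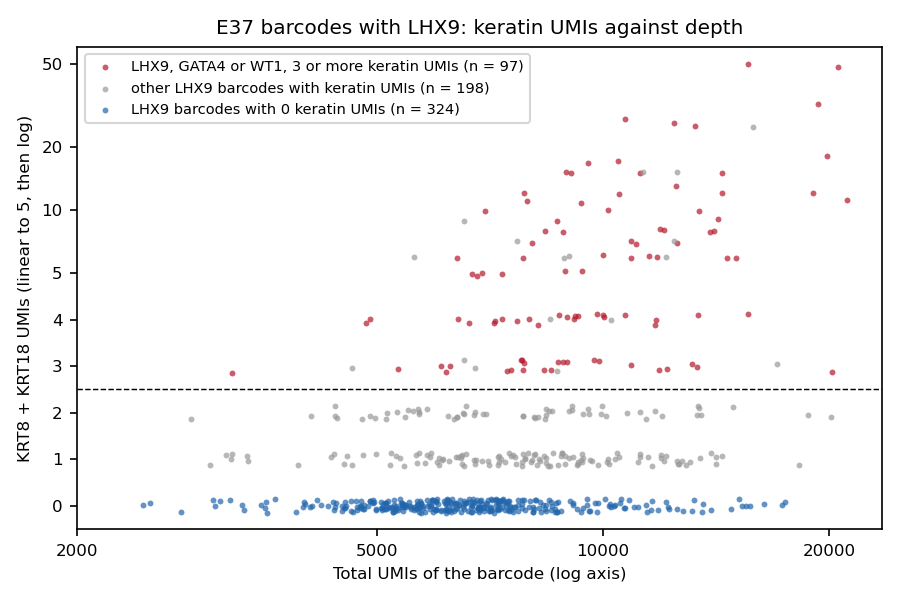
Each point is 1 of the 619 E37 barcodes with an LHX9 UMI, with its total UMIs on the x axis (log axis) and its KRT8 plus KRT18 UMIs on the y axis (linear to 5, then log). The 97 keratin barcodes (red, median 9370 UMIs) lie above the dashed line and reach 50 keratin UMIs, and the 324 keratin-free barcodes (blue, median 6448 UMIs) lie at 0.

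Gonadal identity was checked with genes outside the rule. EMX2, a homeobox gene needed for gonad formation in the mouse, was found in 29 of 97 keratin barcodes and 366 of the 5201 other E37 barcodes, at 58.9 and 19.04 CPM (3.10-fold, 2.33 to 4.04). That EMX2 level was uneven over the E37 clusters described below. It stood at 145 CPM in the 31 keratin barcodes of cluster 12. In those of clusters 11 and 18 it stood at 30.9 (16.0 to 54.1) and 32.2 CPM (14.7 to 61.0), intervals that include 19.04 CPM. Within the 3 main clusters EMX2 was not higher than in other barcodes (log2 ratio -0.25). NR0B1, the nuclear receptor DAX1, was found in 29 keratin barcodes at 57.9 CPM, against 38.2 CPM in the other barcodes. NR5A1, the steroidogenic factor that marks gonadal somatic cells in other mammals, had 0 UMIs in the keratin barcodes, which allows up to 3.00 CPM. It had 7 UMIs in the whole library, and with the annotation behind the counts not given in the sources, its level was not read. Of epithelial genes outside the rule, KRT19 was present in 86 of 97 barcodes, while KRT7 and CDH1 (E-cadherin) had 0 UMIs and EPCAM 9. CDH1 had 0 UMIs and KRT7 8 UMIs in the whole E37 library, so their absence does not set the keratin barcodes apart. The barcodes thus carried simple keratins, with EMX2 and NR0B1 each in a minority of them. The name gonadal therefore rests mainly on the rule genes.

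Lists of markers of other cell types summed to less in the keratin barcodes than in the other E37 barcodes. The nephric list was close, at 44.9 CPM against 46.9 CPM. Shares of the deeper keratin barcodes were higher for some lists. A nephric gene was in 33.0% against 13.7%, a podocyte gene in 18.6% against 11.8%, and 2 or more smooth muscle genes in 52.6% against 16.5%. For the endothelial, macrophage, glial, germ cell, adrenocortical and endoderm lists, the share with a gene was lower. Of the macrophage list (CSF1R, C1QA, C1QB, C1QC, TYROBP, FCER1G) 2 UMIs were found in 97 keratin barcodes, against 259 UMIs in 7 of 324 keratin-free LHX9 barcodes. The endothelial genes PECAM1, TIE1 and CLDN5, the nephric genes PAX2, LHX1, CDH16 and CUBN, and the podocyte gene NPHS1 were at 0. CDH16, CUBN and NPHS1 had 3, 39 and 16 UMIs in all the other E37 barcodes, so their absence says little. Single genes of these lists were present, with 20 UMIs of GATA3, 18 of EGFL7, 17 of LRP2 and 7 of PAX8. In the same order the keratin-free barcodes held 36, 49, 4 and 3 UMIs, and the other E37 barcodes 1313, 3487, 63 and 155. Both groups had larger totals, so LRP2 and PAX8 were higher per UMI in keratin barcodes than in either. Of the smooth muscle list MYH11 and ACTG2 were at 0, while RGS5 (132 UMIs), TAGLN (105) and DES (76) were found, and 51 of 97 keratin barcodes held 2 or more genes of that list, against 66 of 324 keratin-free barcodes. The summed level of the list was 315 CPM in keratin barcodes and 259 CPM in keratin-free barcodes. The latter held 103 UMIs of RGS5, 258 of TAGLN and 213 of DES. Of these 3 genes RGS5 was 2-fold or more higher in keratin barcodes and 0 were 2-fold or more lower. TH, of the sympathoadrenal list, had 74 UMIs against 232, and that list summed to 87.9 CPM against 171 CPM. The other lists summed to 44.9 CPM against 19.5 CPM (nephric), 20.97 against 15.96 CPM (podocyte), 19.97 against 25.3 CPM (endothelial), 23.96 against 23.5 CPM (glial), 430 against 147 CPM (red cell), 7.99 against 11.97 CPM (adrenocortical), and 3.00 against 6.21 CPM (germ cell). The endoderm list had 2 UMIs in keratin barcodes and 6 in keratin-free barcodes. One barcode held 232 of the 310 HBE1 UMIs and 71 of the 94 HBZ UMIs. Without it HBE1 stood at 79.4 CPM. Scrublet, a doublet scorer, gave the keratin barcodes a median score of 0.0353, against 0.0301 in keratin-free and 0.0285 in other barcodes. Removing the 225 highest scores of the library removed 7 of the 97, or 7.22%, against 4.25% of all E37 barcodes. The part that other cells or doublets play in the results was not tested.

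The background of free RNA was gauged in cells that should lack these genes. Of 243 barcodes with endothelial markers (median 8276 UMIs) and 76 with macrophage markers (median 8895.5 UMIs), 0 met the rule, which allows up to 1.23% and 3.95%. KRT8 was found in 7.8% of endothelial and 2.6% of macrophage barcodes, LHX9 in 0.41% and 3.9%, and WT1 in 10.7% and 7.9%. In the other E37 barcodes KRT8 was found in 13.1%. Barcode sequences can recur between libraries: 149 of the E37 sequences did, among them 6 keratin barcodes, and 0 of these 6 met the rule in the other library as well.

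The question put to the first comparison was how LHX9 barcodes with keratins differ from those without. In keratin barcodes 5 of 7 measured genes of the mesothelium list and 3 of 6 of the junction list were 2-fold or more higher. KRT19 and CDH3 are counted in both lists. Of 24 mesenchymal genes 7 were lower. Of 15 basement membrane genes, 4 were higher (LAMA5, FREM2, COL18A1 and AGRN) and 3 lower (NID2, HSPG2 and FREM3), with a median log2 ratio of 0.22. LHX9, which chose both groups, stood at 246 CPM in keratin barcodes and 251 CPM in keratin-free ones, and nothing is read from it. A gene was called measured when the mean of both levels came to at least 10 UMIs in the smaller total, and past 2-fold when its log2 ratio, with a pseudocount of 0.5 UMIs scaled to the totals, reached 1 in size. Of 8311 genes measured, 265 were 2-fold or more higher (3.19%) and 362 were 2-fold or more lower (4.36%), with a median log2 ratio of -0.02.

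TNNT2, which encodes cardiac troponin T, had the highest lower bound among the ratios of the genes named by rank. It had 110 UMIs in 50 of 97 keratin barcodes, against 9 UMIs in 8 of 324 keratin-free LHX9 barcodes. No keratin barcode held more than 7, so the level did not rest on a single barcode. The levels were 109.8 CPM and 3.99 CPM, a ratio of 27.5 (13.98 to 61.8). Other genes of heart muscle did not accompany it evenly: TNNI1 stood at 283 CPM against 91.3 CPM and MYL7 at 39.9 CPM against 4.88 CPM, while TNNI3 had 23 UMIs against 45. MYH6, NKX2-5, TBX5 and NPPA had 0 UMIs in the keratin barcodes. In the 5201 other E37 barcodes these had 16, 13, 20 and 0 UMIs, so their absence says little. This set of heart genes was looked at after TNNT2 was seen.

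PODXL encodes podocalyxin, a sialomucin of the free surface of podocytes and of mesothelium. It was found in 87 of 97 keratin barcodes, at 372 CPM, and in 46 of 324 keratin-free barcodes, at 42.6 CPM, an 8.75-fold difference (6.97 to 11.07). KRT19, another keratin of simple epithelia, was 6.17-fold higher (5.25 to 7.27), at 566 CPM in 86 of 97 keratin barcodes against 91.8 CPM in 92 of 324. Both genes were thus present in most keratin barcodes and in a minority of the keratin-free ones.

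Junction and adhesion genes followed. DSP, desmoplakin of the desmosome, stood at 91.9 CPM against 13.3 CPM (6.91-fold, 4.53 to 10.81). CXADR, an adhesion molecule of tight junctions, stood at 119.8 CPM against 23.9 CPM (5.00-fold, 3.60 to 7.03). BCAM, a laminin receptor, was 4.64-fold higher (3.27 to 6.67). PKP2, plakophilin of the desmosome, had 18 UMIs against 0, which is at least 13.5-fold higher taking 3 counts in the keratin-free total, although its mean level was under the minimum. Of the 25 genes of the junction list, which also holds the keratins KRT7 and KRT19, 6 were measured. Of these, 3 were past 2-fold higher (KRT19, CDH3 and DSP) and 0 lower, with a median log2 ratio of 1.23, against -0.02 for all genes. KRT19 and CDH3 also stand on the mesothelium list.

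Of the mesothelium list, markers of the lining of body cavities, 7 of 19 genes were measured, 5 were higher and 0 lower, and the median was 1.51. BNC1, basonuclin, was 5.76-fold higher (3.58 to 9.55), at 63.9 CPM against 11.09 CPM. UPK3B, a uroplakin of mesothelium, was 4.02-fold higher (2.01 to 8.37), with 25 UMIs in 22 keratin barcodes against 14 UMIs in 11 keratin-free ones. CDH3 (2.91-fold), PDPN, podoplanin (2.47-fold), and KRT19 completed the 5. ALDH1A2, which makes retinoic acid, went the other way in value, at 58.9 CPM against 118.0 CPM, just short of the 2-fold line on the log2 scale with pseudocount. The remaining genes named by rank were TPD52L1 (5.68-fold), ARC, an immediate-early gene of the cytoskeleton (4.69-fold), STK26, a kinase (3.99-fold), TMEM88, a membrane protein known to restrain Wnt signalling (3.39-fold), and PRSS35 (3.22-fold).

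On the lower side ANGPT1, the ligand of the TIE2 receptor of vessels, had 10 UMIs in 8 of 97 keratin barcodes and 396 UMIs in 140 of 324 keratin-free ones. Its levels were 9.99 CPM and 175.6 CPM (17.6-fold lower, 9.46 to 36.96). CXCL12, the chemokine that in mouse and zebrafish guides germ cells to the gonad, was 9.14-fold lower (7.63 to 11.02), at 125 CPM in 52 keratin barcodes against 1140 CPM in 286 keratin-free ones. SFRP2, a secreted Wnt inhibitor, stood at 40.9 CPM against 383 CPM (9.36-fold lower, 6.84 to 13.13), and VCAN, the matrix proteoglycan versican, at 73.9 CPM against 556 CPM (7.53-fold lower, 5.96 to 9.66). All 4 encode secreted proteins.

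LDB2, a partner of LIM-domain proteins, was 11.4-fold lower, PCDH11X, a protocadherin, 12.8-fold lower (4 UMIs against 115), and NOSTRIN 21.8-fold lower (2 UMIs against 98, interval 5.87 to 182). C1QTNF3 had 1 UMI against 79 (35.1-fold lower, 6.12 to 1403). KYNU, kynureninase, had 0 UMIs against 51 in 44 barcodes and was at least 7.55-fold lower. C1QA and C1QB are complement genes of macrophages, and their keratin-free UMIs came from 4 barcodes each. They had 0 against 55 UMIs (at least 8.14-fold lower) and 1 against 79 UMIs (35.1-fold lower, 6.12 to 1403). BMP2 had 2 UMIs against 68 (15.1-fold lower, 4.02 to 127).

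Mesenchymal and retinoid genes were lower as lists. Of 28 mesenchymal genes 24 were measured, 0 were higher and 7 lower, with a median log2 ratio of -0.65. The 7 were COL1A2 (475 CPM against 1017 CPM), PDGFRB, TWIST1, TWIST2, SNAI2 (95.9 CPM against 285 CPM), ZEB2 and POSTN (34.0 CPM against 145.0 CPM). DCN, decorin, and VIM, vimentin, stayed close, at 1384 CPM against 1275 CPM and 1848 CPM against 1551 CPM. Of 8 measured retinoic acid genes 3 were lower and 0 higher, with a median of -0.98. DHRS3, a retinal reductase, was 5.17-fold lower and RARB, a receptor, 3.00-fold lower. DLK1, a Notch-like surface protein of progenitors, was 3.42-fold lower (3.11 to 3.76), at 500.3 CPM against 1709 CPM.

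Signalling genes were split. Of 16 Wnt genes measured, WNT2B (3.26-fold) and RSPO1 (2.31-fold), both activators, were higher, and RSPO3, SFRP1, SFRP2 and DKK1 were lower. SFRP1 stood at 119.8 CPM against 563 CPM. Of 4 chemokines measured, CXCL14 (3.98-fold), CXCL11 (2.36-fold) and CXCL10 (2.05-fold) were higher and CXCL12 lower. CXCL14 came from 10 of 97 keratin barcodes, 1 of which held 10 of its 46 UMIs. Of the supporting cell list, FGF9 (2.94-fold), GADD45G and RSPO1 were higher and BMP2 lower among 12 measured, while SOX9 (13 UMIs against 33) and WNT4 (14 against 29) stood at ratios of 0.89 and 1.09 with intervals that span 1. Axon guidance genes went both ways, with SEMA3A, SEMA3C and EFNB2 higher and SEMA6A, SLIT3, NRP1 and UNC5C lower.

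Most regulators of the gonad were under 2-fold. Of 15 measured, CITED2 was higher (2.38-fold) and TCF21 lower, at 171 CPM against 360 CPM (2.11-fold lower). EMX2 stood at 58.9 CPM against 53.2 CPM (ratio 1.11, 0.80 to 1.52) and NR0B1 at 57.9 CPM against 56.8 CPM (ratio 1.02, 0.73 to 1.40). LHX2 had 18 UMIs against 4, but 8 of the 18 lay in 1 barcode. GATA4 stood at 83.9 CPM against 25.3 CPM and WT1 at 191 CPM against 123 CPM, both part of the rule for the keratin barcodes only. When the keratin-free barcodes were also required to hold GATA4 or WT1, which left 174, all 19 named genes that were still measured kept past 2-fold, and PODXL, BNC1, ARC, ANGPT1 and SFRP2 shifted by over 1.5 times.

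**Figure D2:**
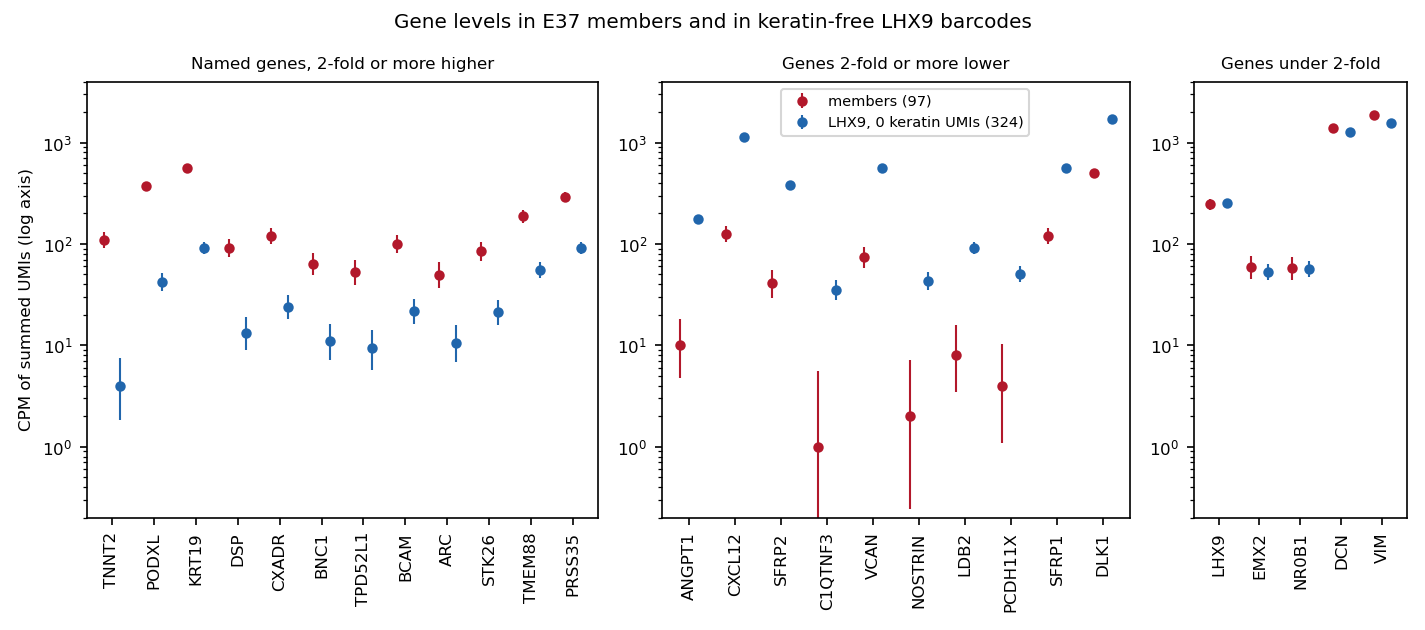
Points are levels in CPM of summed UMIs (log axis) with exact Poisson 95% intervals, for the 97 keratin barcodes ("members", red) and the 324 keratin-free LHX9 barcodes (blue). The 12 genes of the left panel lie higher in red, TNNT2 most widely apart (109.8 against 3.99 CPM), those of the middle panel lie lower in red (CXCL12 at 125 against 1140 CPM), and EMX2, NR0B1, DCN and VIM in the right panel lie close, beside LHX9, which chose both groups.

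Some genes of cell division were past 2-fold. All 20 genes of the G2/M list, active as cells divide, were measured, 5 were past 2-fold higher (CCNB1, AURKA, PLK1, BUB1 and CDC20) and 0 lower, with a median log2 ratio of 0.74. The list held 0.387% of UMIs in keratin barcodes, 0.237% in keratin-free and 0.232% in other barcodes. Of 19 measured S-phase genes 0 were past 2-fold, with a median of 0.27. Within the 3 main clusters given below, 0 of 20 G2/M genes were past 2-fold and the S-phase median was -0.46. Depth moved with this list and the division genes went with 1 of the clusters described next, and the part of either was not tested.

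The E37 barcodes were clustered with the 5 rule genes left out, giving 29 clusters. Of the 97 keratin barcodes 91 lay in 3 clusters, with 31 of 270 barcodes in cluster 11, 31 of 257 in cluster 12 and 29 of 85 in cluster 18. The other 6 were spread over clusters 1, 2, 8 and 13, with 1 or 2 in each. Cluster 11 was led by DCN and by division genes such as ASPM and TOP2A, cluster 12 by CXCL10, EMX2, PLP2 and KRT19, and cluster 18 by DCN, PODXL and KRT19. The clusters are called by number, since they were made from the same counts. Keratin-free LHX9 barcodes were spread otherwise: 123 lay in cluster 2, led by DCN, HLX and SHISA3, against 2 keratin barcodes there, with 87 in cluster 12, 37 in cluster 11 and 5 in cluster 18.

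The levels in the keratin barcodes of the 3 clusters are a description, since the genes served either the rule or the clustering. LHX9 stood at 258, 255 and 254 CPM in those of clusters 11, 12 and 18. KRT18 stood at 333, 129 and 382 CPM, and KRT8 at 451, 358 and 782 CPM, both lowest in cluster 12, where the median barcode held 4 keratin UMIs, against 6 in cluster 11 and 8 in cluster 18. WT1 ran opposite, at 137, 304 and 175 CPM, and GATA4 stood at 108, 53.3 and 85.8 CPM. Among genes used in the clustering, DCN stood at 1710, 449 and 1994 CPM, EMX2 at 30.9, 145 and 32.2 CPM, ALDH1A2 at 15.5, 190.2 and 7.15 CPM, and TOP2A at 779, 45.7 and 25.01 CPM. DCN and EMX2 were found together in 22 keratin barcodes, DCN alone in 58, EMX2 alone in 7 and neither in 10.

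**Figure D3:**
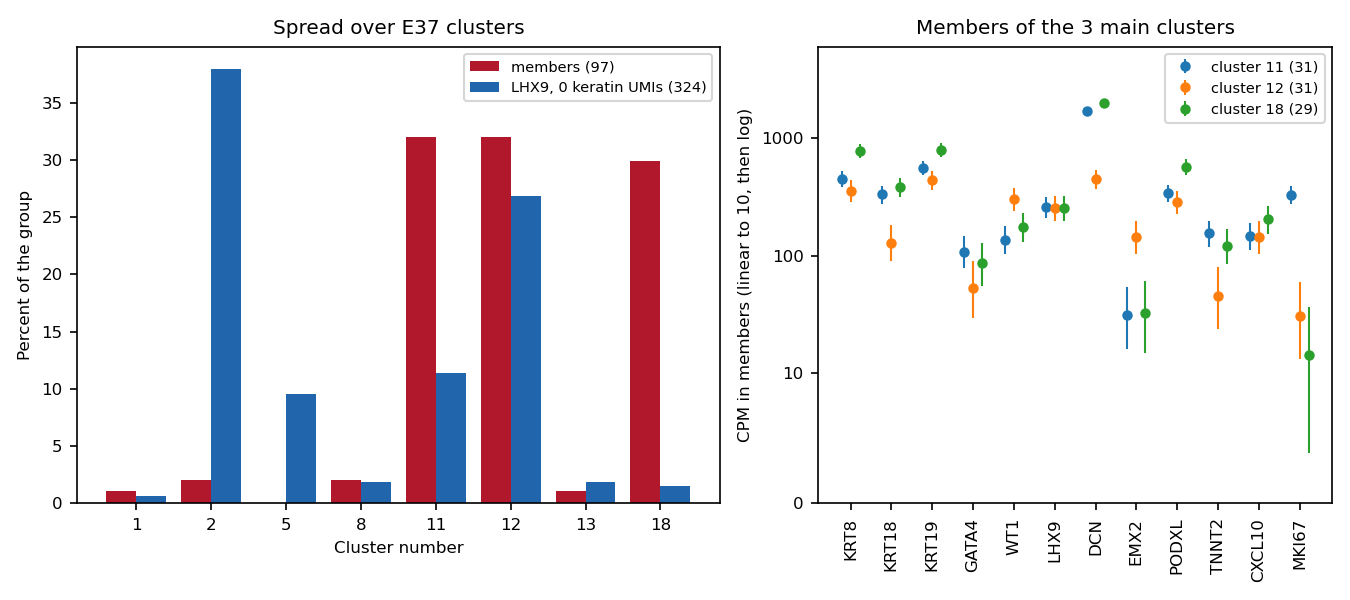
Left, the percent of the 97 keratin barcodes ("members", red) and of the 324 keratin-free LHX9 barcodes (blue) in each E37 cluster that holds a keratin barcode or at least 10 keratin-free ones. Right, levels in CPM with exact Poisson 95% intervals (linear to 10, then log) in the keratin barcodes of clusters 11, 12 and 18, where WT1 (304 CPM) and EMX2 (145 CPM) are highest in cluster 12. These genes served the rule or the clustering.

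Because the groups lay in different clusters, they were also compared within the 3 main ones, a comparison added after the data were seen. It held 91 keratin and 129 keratin-free barcodes, pooled over the 3 clusters. All 18 named genes that were measured there stayed past 2-fold. TNNT2 was 17.6-fold higher (106 UMIs against 6), PODXL 4.18-fold (3.30 to 5.35), DSP 4.27-fold (2.60 to 7.34) and KRT19 3.31-fold (2.78 to 3.96). CXCL12 stood at 90.3 CPM against 518 CPM and VCAN at 49.4 CPM against 306 CPM. Of 7866 genes measured in this comparison, 295 were 2-fold or more higher and 251 lower, with a median log2 ratio of 0.005. The counts of several lists changed. The mesothelium list had 2 of 7 genes higher and 1 lower there, with a median of 0.79, against 5, 0 and 1.51 over all clusters, and UPK3B stood at a ratio of 1.78 (0.89 to 3.69). The junction list had 2 of 6 genes higher and a median of 0.54, against 3 and 1.23. The mesenchymal list had 2 of 24 genes lower and a median of -0.10, against 7 and -0.65. Of the division lists, G2/M had 0 of 20 genes past 2-fold and a median of 0.11, and the S-phase list had 2 of 19 genes lower and a median of -0.46, against 0 and 0.27. The basement membrane list had 6 of 14 genes higher and 1 lower, with a median of 0.67. The retinoic acid list kept its direction, with 5 of 8 lower and a median of -1.14. CXCL10 was level only when pooled, at 163 CPM against 157 CPM. It was higher in keratin barcodes of cluster 11 (147 CPM against 42.4 CPM) and lower in those of cluster 12 (145 CPM against 224 CPM). EMX2, pooled over the 3, stood at 63.4 CPM against 113.5 CPM, a ratio of 0.56 (0.40 to 0.78), against 1.11 over all clusters. Its ratio was 1.46 (0.53 to 4.37) in cluster 11 alone and 0.82 (0.55 to 1.20) in cluster 12 alone, with intervals that span 1. Cluster 12 held 31 of the 91 keratin and 87 of the 129 keratin-free barcodes, and the pooled EMX2 ratio is not read as a difference within clusters.

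Within single clusters the same genes could be read for 2 of the 3. In cluster 11, with 31 keratin and 37 keratin-free barcodes, TNNT2 had 60 UMIs against 0, KRT19 was 18.4-fold higher (9.81 to 38.9) and PODXL 7.49-fold higher (4.38 to 13.76). In cluster 12, with 31 and 87 barcodes, PODXL was 2.77-fold higher (1.94 to 3.98), KRT19 1.69-fold (1.31 to 2.18) and TNNT2 5.06-fold (1.66 to 18.3, 12 UMIs against 5). CXADR, TPD52L1, BCAM, STK26, TMEM88 and PRSS35 had intervals above 1 in both clusters. Intervals spanned 1 in cluster 12 for DSP (ratio 1.81, 0.76 to 4.21), BNC1 (2.11, 0.93 to 4.77), ARC (1.45, 0.61 to 3.32) and UPK3B (0.70, 0.12 to 2.81). TCF21 stood at a ratio of 0.90 (0.61 to 1.31) in cluster 11 and 0.45 (0.35 to 0.59) in cluster 12. CXCL12 was lower in both, at 103 CPM against 542 CPM in cluster 11 and 87.5 CPM against 536 CPM in cluster 12. SFRP2 was lower in cluster 11 (23.2 CPM against 412 CPM). In cluster 12 it had 8 UMIs against 7, at 30.4 CPM against 12.6 CPM, with an interval that spans 1 (ratio 2.41, 0.76 to 7.80). DLK1 stood at 369 CPM against 2015 CPM in cluster 11 and was higher in cluster 12, at 491 CPM against 316 CPM (ratio 1.55, 1.23 to 1.96). Cluster 18 had 5 keratin-free barcodes, too few to compare.

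The levels of several genes ran in steps with the number of keratin UMIs. Apart from EMX2, these genes were taken from those that differed between keratin and keratin-free barcodes. The same barcodes fill the groups at 3 or more and at 0, so the direction from end to end was set beforehand and is a description. Among the 423 LHX9 barcodes with GATA4 or WT1, those with 0, 1, 2, 3, 4, 5 to 9 and 10 or more keratin UMIs numbered 174, 97, 55, 24, 23, 26 and 24. In that order TNNT2 stood at 5.47, 16.6, 47.9, 50.5, 67.8, 85.6 and 201 CPM, higher at every step. PODXL stood at 68.8, 123, 225, 257, 228, 406 and 522 CPM and KRT19 at 135, 305, 362, 404, 373, 607 and 775 CPM, each with 1 small step down at 4 UMIs. DSP stood at 17.2 CPM with 0 keratin UMIs and 143 CPM with 10 or more. On the other side CXCL12 stood at 1083, 497, 253, 147, 136, 101 and 123 CPM, and most of its change lay between 0 and 2 keratin UMIs, outside the rule. ANGPT1 stood at 96.2 CPM with 0 and 3.24 CPM with 10 or more, and TCF21 at 457 CPM and 81.05 CPM. Other genes did not run evenly. In the same order UPK3B stood at 10.9, 15.4, 15.3, 4.59, 29.0, 44.7 and 19.5 CPM. DLK1 stood at 1018, 463, 562, 454, 407, 730 and 396 CPM. EMX2 stood between 74.3 and 128.5 CPM up to 3 keratin UMIs and at 16.2 CPM with 10 or more. Median depth ran along with the steps, from 6841 UMIs at 0 to 11820 at 10 or more. At the line the rule drew, barcodes with 3 and with 2 keratin UMIs were close in TNNT2 (50.5 and 47.9 CPM), PODXL (257 and 225 CPM) and KRT19 (404 and 362 CPM). CXCL12 was not close there in level, at 147 CPM (100.5 to 207) with 3 and 253 CPM (209 to 303) with 2. The share of barcodes holding CXCL12 was close, with 12 of 24 and 30 of 55. These intervals leave out the spread between barcodes, so the difference in level is not read as a step at the line.

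**Figure D4:**
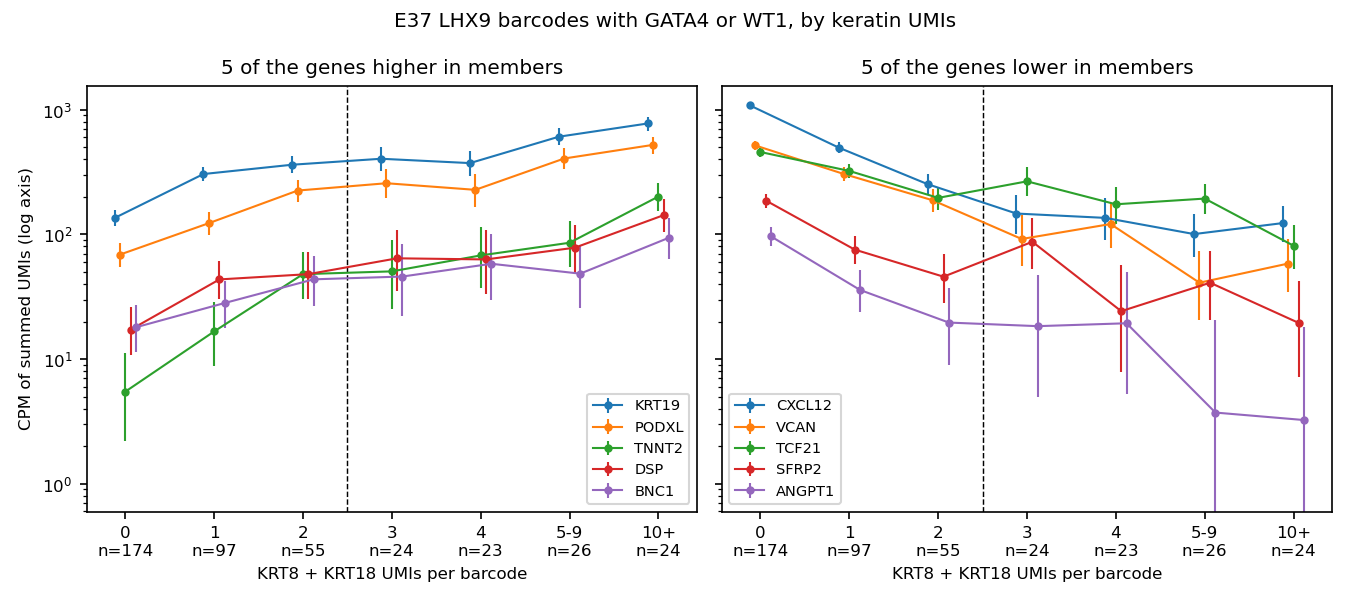
Levels in CPM of summed UMIs (log axis, exact Poisson 95% intervals) in E37 LHX9 barcodes with GATA4 or WT1, grouped by KRT8 plus KRT18 UMIs per barcode, with the number of barcodes (n) under each group and the rule's limit as a dashed line. TNNT2 runs from 5.47 CPM at 0 keratin UMIs to 201 CPM at 10 or more, CXCL12 from 1083 to 123 CPM. Across the line TNNT2 is close, at 50.5 CPM with 3 keratin UMIs and 47.9 CPM with 2. CXCL12 is lower in level with 3 (147 CPM) than with 2 (253 CPM), but was found in close shares of barcodes (12 of 24 and 30 of 55).

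Within the 97 keratin barcodes themselves, thinned to 2000 UMIs, no gene followed the keratin count closely. Over 4982 genes found in 20% or more of them, the highest Spearman correlation with KRT8 plus KRT18 UMIs was 0.37 (MAMDC4) and the next 0.34 (S100A10). At this depth such values are not read as a finding.

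Depth was held fixed in 2 further ways. In barcodes of 6000 to 12000 UMIs, 68 with keratins and 177 without, all 20 named genes that were measured stayed past 2-fold (this limit was chosen after the data were seen). After thinning every barcode to 2000 UMIs, with 0 left out as shallower, PODXL was found in 53.6% of keratin barcodes, 4.3% of keratin-free ones and 1.3% of macrophage barcodes. TNNT2 was found in 19.6%, 0.31% and 1.3%, and KRT19 in 56.7%, 13.3% and 1.3% in the same order. Unthinned, PODXL was found in 89.7% and 14.2%, TNNT2 in 51.5% and 2.5%, and KRT19 in 88.7% and 28.4% of keratin and keratin-free barcodes. CXCL12 was found in 12.4% of thinned keratin barcodes and 69.4% of thinned keratin-free ones, with 7.8% of endothelial and 6.6% of macrophage barcodes as background. ANGPT1 was found unthinned in 8.2% and 43.2%, against 6.6% of macrophage barcodes, so its share in keratin barcodes was near background. Thinning came after the rule, which had used the full depth.

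Against all other E37 barcodes TNNT2, BNC1, KRT19 and ARC had the highest ratios among the 12 genes named as higher. Of 8381 genes measured, 285 were 2-fold or more higher in keratin barcodes (3.40%) and 443 lower (5.29%), with a median log2 ratio of -0.01. TNNT2 stood at 109.8 CPM against 7.87 CPM (13.9-fold, 11.1 to 17.4) and BNC1 at 63.9 CPM against 5.07 CPM (12.6-fold, 9.36 to 16.8). KRT19 was 9.52-fold higher (8.67 to 10.44), PODXL 8.81-fold (7.85 to 9.86) and PRSS35 8.20-fold (7.21 to 9.31). ARC (9.46-fold), PLP2, a proteolipid (7.50-fold), CXCL10, an interferon-induced chemokine (6.64-fold), SH3GL2, endophilin (5.69-fold), DSP (5.40-fold), CXADR (5.30-fold) and DCN (4.59-fold, 1384 CPM against 302 CPM) completed the named genes. Over all clusters, DCN and the EMX2 level above separated the keratin barcodes from the rest of the library but not from keratin-free LHX9 barcodes. Against keratin-free barcodes of the same cluster, DCN stood at a ratio of 1.70 (1.32 to 2.19) in cluster 12 and 0.86 (0.77 to 0.96) in cluster 11. By keratin UMIs, DCN stood at 872 CPM with 0 and 1893 CPM with 10 or more.

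Of 8 mesothelium genes measured 6 were higher (UPK3B, BNC1, BNC2, KRT19, CDH3 and PDPN) and ALDH1A1 lower, with a median of 1.82, against -0.01 for all genes. Of 17 basement membrane genes 2 were higher (LAMA5 and FREM2) and 4 lower (LAMA4, NID1, NID2 and HSPG2), with a median of -0.15. Of 16 gonadal regulators 4 were higher, namely EMX2, LHX2 (3.03-fold), GATA6 (2.83-fold, 111 CPM against 39.1 CPM) and ZFPM2, the GATA partner FOG2 (3.34-fold), and 0 were lower. Of 10 retinoic acid genes 6 were lower and 0 higher, with a median of -1.18. WNT2B (6.92-fold), RSPO1 (5.49-fold), FRZB and LEF1 were higher among 17 Wnt genes, and RSPO3, SFRP1, SFRP2 and DKK1 lower.

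The genes furthest below the rest of the library were markers of other tissues in the dissection. AFP of endoderm, RNASE1 and CLDN5 of endothelium, C1QA and C1QC of macrophages, ALAS2 of red cells and ACTA2 of smooth muscle each had 0 UMIs in the 97 keratin barcodes and were at least 19.9, 19.2, 13.9, 16.2, 13.1, 14.6 and 13.05-fold lower, in the order named. NTRK2, a neurotrophin receptor, had 5 UMIs against 6850 (34.96-fold lower, 14.97 to 108). When both groups were limited to the 3 main clusters (91 and 521 barcodes), 12 of the 20 named genes were measured and 5 stayed past 2-fold, TNNT2, BNC1, KRT19, PODXL and DSP. PRSS35, ARC, PLP2, CXCL10, SH3GL2, CXADR and DCN were under 2-fold there, and EMX2 and LHX2 turned to log2 ratios of -0.25 and -0.64.

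A further 148 E37 barcodes met the keratin and the GATA4 or WT1 conditions without an LHX9 UMI. PODXL stood at 372 CPM in keratin barcodes and 370 CPM in these, KRT19 at 566 and 417 CPM, and TNNT2 at 109.8 and 80.6 CPM. They were not alike in all: AFP stood at 0 and 245 CPM (the 245 CPM from 6 barcodes), DCN at 1384 and 514 CPM, GAP43 at 219 and 34.2 CPM, NR0B1 at 57.9 and 14.3 CPM, and EPCAM at 8.99 and 41.4 CPM, so the 148 include barcodes with genes of other epithelia. Of the 148, 42 lay in cluster 14, which held 0 keratin barcodes with LHX9, while clusters 11, 18 and 12 held 33, 19 and 5.

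At E28 the same rule was met by 94 of 5028 barcodes, or 1.87% (1.51% to 2.28%), with a median of 14746.5 UMIs. The GATA4 or WT1 condition was met there through WT1, which was found in 94 barcodes, with GATA4 in 6. At E37 WT1 was found in 87 and GATA4 in 50 of the 97. Between the libraries the stage, the tissue taken and the library cannot be told apart. The ratio of E37 to E28 in all barcodes outside the rule is therefore given beside most values, and the difference between both ratios was not tested. Of 8319 genes measured, 408 were 2-fold or more higher at E37 (4.90%) and 443 lower (5.33%), with a median log2 ratio of -0.04.

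KRT8 stood at 505 CPM at E37 and 582 CPM at E28 in barcodes meeting the rule, and KRT18 at 274 and 371 CPM. The rule asked for these keratins at both stages, so their levels are a description. KRT19 was 4.72-fold higher at E37 (3.98 to 5.61), at 566 CPM against 120.1 CPM, and 1.90-fold higher in other barcodes. Of genes that separated keratin from keratin-free barcodes at E37, BNC1 (63.9 CPM against 50.3 CPM), DSP (91.9 CPM at both) and CXCL12 (125 CPM against 124 CPM) differed by intervals that span a ratio of 1, while in other barcodes DSP was 3.97-fold lower and CXCL12 2.98-fold higher. TNNT2 stood at 109.8 CPM at E37 and 38.9 CPM at E28. Of 9 genes of the junction list measured, the keratin KRT19 was higher at E37 and 4 were lower: CDH3 4.73-fold, PKP2 2.39-fold, PERP 9.81-fold and CLDN1 6.55-fold. In other barcodes these 4 were 7.90, 7.24, 9.04 and 3.98-fold lower. Of 4 chemokines measured, CXCL10, CXCL11 and CXCL14 were higher at E37, CXCL14 with 46 UMIs against 0 (at least 22.8-fold).

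Of the lists, basement membrane had 0 genes higher at E37 and 3 lower (LAMA1, HSPG2 and AGRN) of 15 measured. Axon guidance had 4 higher (ROBO2, NRP2, EPHA4 and UNC5C) and 2 lower (SLIT3 and NRP1) of 17. Among single genes DCN was 26.5-fold higher (21.05 to 33.7), at 1384 CPM against 52.3 CPM, and 35.03-fold higher in other barcodes. NFIA, a nuclear factor, had 127 UMIs at E37 and 2 at E28 (94.5-fold, 25.6 to 789), and was 18.7-fold higher in other barcodes. GAP43, of growing nerve endings, was 36.2-fold higher (18.7 to 80.3), at 219 CPM against 6.04 CPM, and 2.77-fold higher in other barcodes. ROBO2, a SLIT receptor, was 19.8-fold higher (8.73 to 55.7) and 1.49-fold in other barcodes, and RIMS1, a presynaptic protein, 19.9-fold and 2.77-fold. COL9A3 (31.01-fold), NEFM, a neurofilament (16.97-fold), and HLX, a homeobox gene (15.2-fold), were 8.06, 5.86 and 7.69-fold higher in other barcodes. GATA4, used by the rule, stood at 83.9 CPM and 4.03 CPM (20.8-fold) and was 20.6-fold higher in other barcodes. ZFPM2 was 10.54-fold and GATA6 3.12-fold higher, against 4.09-fold and 4.33-fold in other barcodes. Of 18 immediate-early and stress genes measured 6 were higher and 0 lower, and their part in the other differences was not tested.

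Other genes were lower at E37. LHX1 and PAX8, of the nephric lineage, had 0 against 71 UMIs (at least 15.9-fold lower) and 7 against 102 UMIs (9.79-fold lower), and were 38.3-fold and 29.2-fold lower in other barcodes. OSR2 was 23.5-fold lower (7.83 to 116), with 3 UMIs at E37, and 2.60-fold lower in other barcodes. EMX2 was 2.74-fold lower (2.06 to 3.71), found in 29 of 97 against 76 of 94 barcodes, and 7.43-fold lower in other barcodes. ALDH1A2 was 5.37-fold lower (4.09 to 7.17), at 58.9 CPM against 317 CPM, yet 1.59-fold higher in other barcodes. NTRK2 was 15.5-fold lower (6.43 to 48.5) yet 2.91-fold higher in others. ENO3, muscle enolase (33.7-fold), PCP4 (21.2-fold), FAM132A (20.7-fold), TXNIP (19.7-fold) and EDN3, an endothelin (15.3-fold), were the other genes named, 10.43, 2.62, 12.9, 2.70 and 1.26-fold lower in other barcodes. NR0B1 was 2.22-fold lower and DLK1 4.33-fold lower, and DLK1 was 2.09-fold higher in other barcodes.

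**Figure D5:**
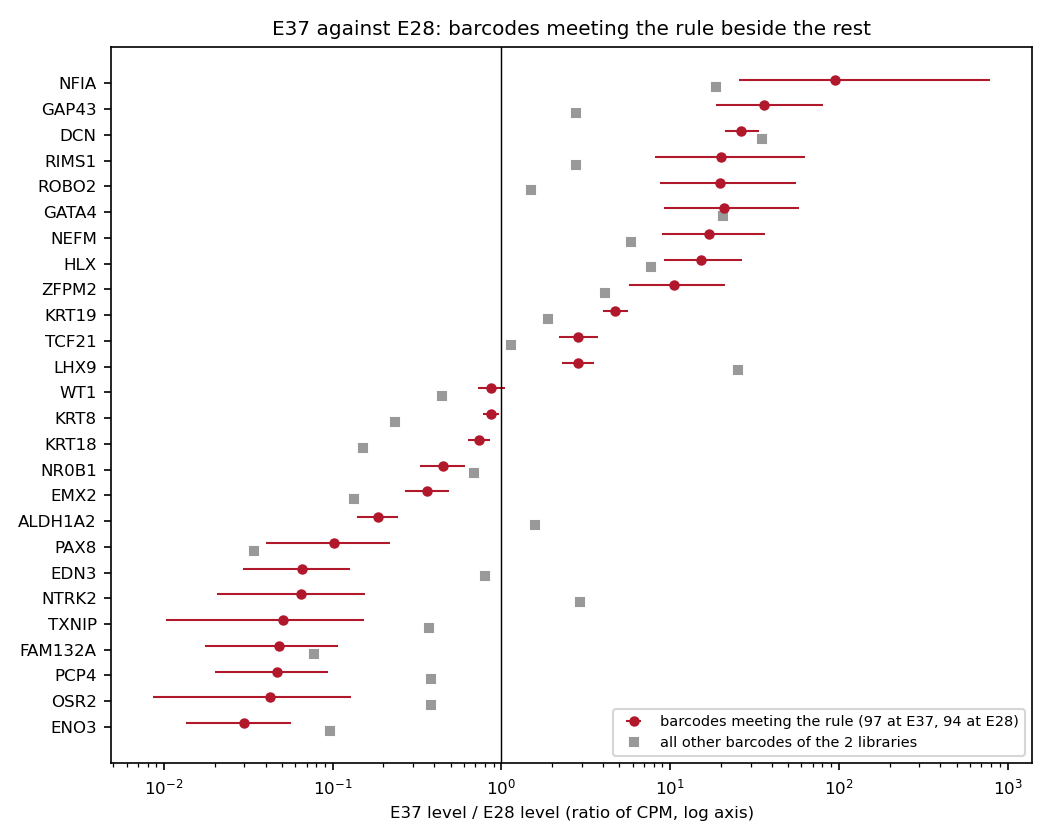
Ratio of the E37 level to the E28 level (log axis) in barcodes meeting the rule (red, 97 at E37 and 94 at E28, exact 95% intervals) and in all other barcodes of the same libraries (grey squares), for named and added genes. ALDH1A2 and NTRK2 lie on opposite sides of 1 in the 2 groups. KRT8, KRT18, LHX9, WT1 and GATA4 served the rule, so their red points are a description.

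At E31 the rule was met by 36 barcodes and at E24 by 5, fewer than the 50 asked for, so no comparison was made. In the 36 at E31, KRT8 stood at 604 CPM, KRT18 at 384 CPM, LHX9 at 93.5 CPM, WT1 at 185.0 CPM and EMX2 at 136 CPM. GATA4 had 0 UMIs there, which allows up to 6.10 CPM, and DCN stood at 28.5 CPM.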

How the data were processed

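Cells were freed with trypsin/EDTA, per the labels' protocols, which name both v2 and v3 droplet kits. The authors used Cell Ranger 2.1.0, per the submitters' processing notes, and deposited UMI counts, not normalized, for each gene in each barcode. No source names the genome build. Of 26223 gene rows 9499 had LOC names, of which 673 took a RefSeq symbol, and 1 blank row held 0 UMIs, a share of 0%.

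All deposited barcodes were used. Counts were summed per group. Intervals were exact: conditional binomial for ratios, Poisson for levels, Clopper-Pearson for shares. A sum of 0 was set to 3 counts for bounds. Clusters came from scanpy 1.11.5 (2000 variable genes, 30 components, 15 neighbours, Leiden resolution 1). Genes were named among those with a symbol and 50 UMIs in the higher group, by the interval bound nearest 1, up to 12 per direction, plus fixed and list genes. Ribosomal, globin and LOC genes were left out. Some genes that met the rule are not reported here. The keratin barcodes and gene lists were chosen with earlier results of these data known. Steps were tested on simulated data. The E37 library held 40243286 UMIs and a gene at 0 in it lies under 0.0745 CPM.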

Additional observations from a re-analysis of the deposited data

How the results depend on the processing

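No paired analysis was possible because each stage has 1 library, and no replicate could be left out. The number of keratin barcodes was 97, and was 152 and 50 with keratin thresholds of 2 and 5 UMIs, 50 with GATA4 required, 17 after thinning to 4000 UMIs, 38 without barcodes holding 2 or more genes of another cell type list, and 68 at 6000 to 12000 UMIs (a limit added after the data were seen). It stayed within its counting interval without likely doublets (90).

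Against keratin-free LHX9 barcodes, the counts of genes past 2-fold higher and lower (265 and 362) were 33 and 26 after thinning, 121 and 180 without barcodes holding other markers, and 164 and 233 at 6000 to 12000 UMIs, each with fewer UMIs and so fewer genes measured. With no minimum level they were 1542 and 3437. Against the other E37 barcodes (285 and 443), they were 34 and 31, 138 and 192, and, with no minimum, 1521 and 7966. There the lower count was 263 at a threshold of 5 UMIs and 289 with GATA4 required, and within the 3 main clusters, added after the data were seen, the counts were 86 and 158. Against E28 (408 and 443) they were 2168 and 3023 with no minimum. That comparison gave no value with GATA4 required, after thinning, without other markers or at 6000 to 12000 UMIs, since fewer than 50 barcodes were left in a group. The cluster with most keratin barcodes held 31, and 62 at Leiden resolution 0.5.

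Within the 3 main clusters EMX2 (log2 ratio -0.25) and LHX2 (-0.64) turned against other E37 barcodes. Against keratin-free barcodes there, EMX2 went below 1 (ratio 0.56, 1.11 over all clusters) and the S-phase median to -0.46 (0.27 over all). In cluster 12 DLK1 stood above 1 (1.55, 1.23 to 1.96), and SFRP2 stood at 2.41 with an interval that spans 1 (0.76 to 7.80). The cause was not tested. Genes under the minimum level in an alternative have no value there.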
